A study of Mus musculus with 15 samples.

Results

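Angptl4, Pdk4, Ucp2, Ucp3 and Plin5 are 5 genes known as targets of the peroxisome proliferator-activated receptors (PPARs) that are induced in muscle by fasting. They were read by symbol from the 56980 rows of a bulk RNA-seq table that covers 15 dystrophic mice, and each symbol matched 1 row. Tibialis anterior (TA) muscle or heart was taken from DBA/2J-mdx mice, which carry a mutated dystrophin gene and develop severe muscular dystrophy. The mice received vehicle or dasatinib plus quercetin (D + Q), a senolytic pair of drugs meant to remove senescent cells. TA came from mice treated 2 times per week for 2 months, from 3 to 5 months of age, with 4 D + Q–treated mice (4 males) and 4 vehicle-treated mice (2 males and 2 females). Hearts came from mice treated 2 times per week for 4 months, from 12 to 16 months of age, with 3 D + Q–treated mice (labelled 1 male and 2 females) and 4 vehicle-treated mice (2 males and 2 females). The strain was the same in all groups, and there was no healthy strain among them. Tissue, age and length of treatment changed together, so they cannot be told apart. The mice had free access to chow. Whether they were fed or fasted at collection, and the time of day, are not given in the sources used here.

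PPARs are nuclear receptors that pair with RXR, bind fatty acids and turn on genes that move, store and burn fat. In fasting, fatty acids reach muscle and heart from adipose tissue, and the fuel of the mitochondria shifts from glucose to fat. Angptl4 is a secreted inhibitor of lipoprotein lipase, Plin5 coats lipid droplets at mitochondria, Pdk4 shuts the pyruvate dehydrogenase complex by phosphorylating it, and Ucp3 and Ucp2 are carriers of the inner mitochondrial membrane.

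In GRCm39, Angptl4 (ENSMUSG00000002289) lies on chr17:33992724-34000804, minus strand, and Plin5 (ENSMUSG00000011305) on chr17:56418446-56424610, minus strand. Pdk4 (ENSMUSG00000019577) lies on chr6:5483097-5496339, minus strand. Ucp3 (ENSMUSG00000032942, chr7:100122136-100135976) and Ucp2 (ENSMUSG00000033685, chr7:100142055-100151227) are neighbours on the plus strand, with 6550 bases between the canonical transcripts. PPAR and RXR bind a direct repeat called DR1, searched here as AGGTCANAGGTCA on both strands within 5000 bases of each canonical start site. With at most 1 mismatch, 0 of the 5 genes held a match, and 18.8% of 21765 protein-coding genes did. With at most 2 mismatches, all 5 genes held at least 1 match, and 75.9% of protein-coding genes did. A match is a description of letters and not a shown binding site. The sites below have 2 mismatches each and are shown because DR1 is the element named for this receptor family. Capitals mark the repeat, and each sequence is read 5′ to 3′ on the strand that carries it.

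Angptl4, upstream by 2359 bases, chr17:34003151-34003175, minus strand: ctgttgAGGTCAGAGGATAattttg
Angptl4, intron 3, chr17:33998265-33998289, plus strand: gaaagtAGGAGAAAGGTCActgggg
Pdk4, upstream by 3821 bases, chr6:5500139-5500163, plus strand: agagatAGGTCAGTGATCAgggact
Ucp3, exon 1 (non-coding), 17 bases after the start site, chr7:100122141-100122165, plus strand: agaattAGGTTTCAGGTCAgctggt
Ucp2, intron 2, chr7:100143982-100144006, plus strand: acatgaAGGTCAGAAGACAactcag
Plin5, exon 1 (non-coding), 299 bases after the start site, chr17:56424232-56424256, plus strand: acgtggAGCTCCGAGGTCAccctca

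These are all the matches of Angptl4, Pdk4 and Ucp2, and of the 4 matches of Ucp3 and the 5 of Plin5 the one nearest the start site.

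Values are TPM, transcript abundances that the authors scaled by transcript length and to the same total of 1000000 in every library. TPM keeps no depth, so precision comes only from the spread between mice, which is also all that the p-values measure. The 6 fast skeletal muscle markers added up to between 35749 and 44794 TPM in TA and between 1330 and 1783 TPM in heart, and the 6 ventricular markers to between 29.4 and 128 TPM in TA and between 21394 and 28377 TPM in heart. Myh4 and Myh1 were under 0.05 TPM in every vehicle-treated heart. Heart D + Q replicate 3 was labelled male and read as female by Xist and Y-linked genes, while 14 of the 15 mice matched their labels. The D + Q–treated hearts differed from the vehicle-treated hearts in markers that do not belong to the 5 genes. The ventricular markers added up to between 26781 and 28377 TPM with D + Q against between 21394 and 23702 TPM with vehicle, with 6 of 6 positive, a median log2 fold change of 0.26 and 0 called. The 4 atrial muscle markers added up to between 382 and 427 TPM against between 862 and 4260 TPM, with 3 of 4 called lower, and the 5 red cell markers to between 26.8 and 122 TPM against between 346 and 1231 TPM, with 5 of 5 negative and 0 called. Bmal1, the activator of the circadian clock, was called higher in D + Q–treated hearts, as the 1 called gene of 4 in its phase, and 7 of 10 clock genes of the opposite phase were called lower. The part of these differences in the results below was not tested.

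In vehicle-treated TA the order of mean TPM was Pdk4, Ucp3, Ucp2, Angptl4 and Plin5, and only the last pair of neighbours had ranges that overlapped. In vehicle-treated heart the order was Pdk4, Ucp2, Plin5, Ucp3 and Angptl4, and no neighbours overlapped. With D + Q the order was unchanged in TA, where only Pdk4 stood clear of its neighbour, and in heart Plin5 and Ucp2 changed places, with overlapping ranges. Pdk4 led in each of the 4 groups, while Plin5 was the last of the 5 genes in TA and above Ucp3 in heart.

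**Figure D1:**
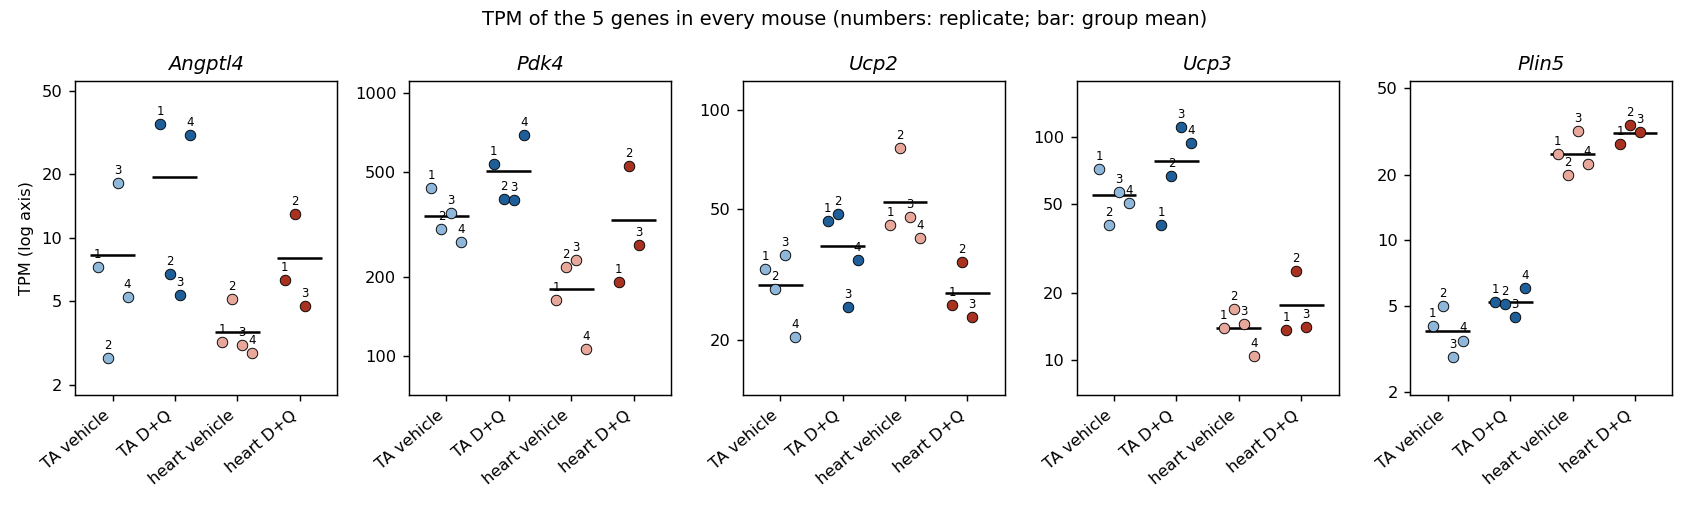
TPM (log axis) of Angptl4, Pdk4, Ucp2, Ucp3 and Plin5 in each of the 15 mice, with vehicle- and D + Q–treated TA in blue and vehicle- and D + Q–treated heart in red. Points are mice numbered by replicate and bars are group means. Plin5 separates the tissues in every mouse, at most 6.003 TPM in TA and at least 19.9 TPM in heart, and Ucp2 is the 1 gene whose D + Q–treated hearts all lie below the vehicle-treated hearts.

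Angptl4 was at 7.23, 2.67, 18.1 and 5.21 TPM in vehicle-treated TA (replicates 1 to 4) and at 34.7, 6.68, 5.33 and 30.7 TPM in D + Q–treated TA. D + Q replicates 1 and 4 were above every vehicle mouse, D + Q replicates 2 and 3 lay among them, and the groups overlapped. The mean was 19.4 ± 15.5 TPM (SD, n = 4) for D + Q–treated mice and 8.30 ± 6.79 TPM (SD, n = 4) for vehicle-treated mice. The same 3 mice that were high in Angptl4, D + Q replicates 1 and 4 and vehicle replicate 3, were high in Mt2, a metallothionein that glucocorticoids and metals induce. In D + Q–treated TA, Mt2 reached 3303, 286, 263 and 2201 TPM, and in vehicle-treated TA 245, 146, 1957 and 233 TPM. These 3 mice also had the 3 highest values of the surrogate variable in the TA model, 0.70, 0.23 and 0.30. Among 8842 genes with a mean of at least 5 TPM, Serpina3n (r = 0.98) and Mt2 (r = 0.98) had the profiles most like that of Angptl4 over the 8 TA mice. Here and below, a search over so many genes and so few mice finds a high r in any case. The most alike profiles are therefore a description and no test.

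In heart, Angptl4 was at 3.19, 5.11, 3.07 and 2.82 TPM with vehicle and at 6.31, 12.99 and 4.71 TPM with D + Q. D + Q replicates 1 and 2 were above every vehicle mouse, and D + Q replicate 3 was below vehicle replicate 2, so the groups overlapped. The mean was 8.002 ± 4.39 TPM (SD, n = 3) for D + Q–treated hearts and 3.55 ± 1.05 TPM (SD, n = 4) for vehicle-treated hearts. The profiles most like it over the 7 hearts, among 8546 genes, were those of Rab11fip3 (r = 0.99) and Pnpla2 (r = 0.98), the latter the triglyceride lipase of lipid droplets.

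Plin5 was at 4.04, 4.97, 2.91 and 3.46 TPM in vehicle-treated TA and at 5.21, 5.07, 4.44 and 6.003 TPM in D + Q–treated TA. D + Q replicates 1, 2 and 4 were above every vehicle mouse, and D + Q replicate 3 was below vehicle replicate 2. The mean was 5.18 ± 0.642 TPM (SD, n = 4) for D + Q–treated mice and 3.84 ± 0.882 TPM (SD, n = 4) for vehicle-treated mice. In heart it was at 25.0, 19.9, 31.8 and 22.4 TPM with vehicle and at 27.7, 33.7 and 31.4 TPM with D + Q. The heart groups overlapped, since vehicle replicate 3 was above D + Q replicates 1 and 3, and the means were 30.9 ± 2.98 TPM (SD, n = 3) and 24.8 ± 5.12 TPM (SD, n = 4). The profiles most like that of Plin5 were Nkiras2 (r = 0.98) and Psmc1 (r = 0.88) in TA, and Noct (r = 0.99) and Ppara (r = 0.98), the receptor PPARα itself, in heart. Ppara was at 9.89, 7.86, 13.6 and 9.70 TPM in vehicle-treated hearts and at 12.6, 15.5 and 13.7 TPM in D + Q–treated hearts. It was picked by this search, so the likeness of its values to those of Plin5 is no separate evidence.

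Pdk4 had the highest TPM of the 5 genes in all 15 mice. In TA it was at 435, 305, 349 and 271 TPM with vehicle and at 536.5, 395, 393 and 694 TPM with D + Q. The 4 D + Q–treated mice were all above the vehicle mean, but vehicle replicate 1 was above D + Q replicates 2 and 3. The mean was 505 ± 143 TPM (SD, n = 4) for D + Q–treated mice and 339.9 ± 70.8 TPM (SD, n = 4) for vehicle-treated mice. In heart it was at 164, 217, 232 and 107 TPM with vehicle and at 192, 527 and 265 TPM with D + Q. D + Q replicate 2 lay within the range of D + Q–treated TA and D + Q replicate 1 among the vehicle-treated hearts, and the means were 328 ± 176 TPM (SD, n = 3) and 180.0 ± 56.9 TPM (SD, n = 4). The profiles most like that of Pdk4 were those of Rab7 and Slc25a5 (both r = 0.91) in TA and Vps4a and Rc3h1 (both r = 0.98) in heart.

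Ucp3, the carrier found mainly in skeletal muscle, was at 71.7, 40.1, 56.7 and 50.3 TPM in vehicle-treated TA and at 40.3, 66.6, 111 and 93.1 TPM in D + Q–treated TA. D + Q replicates 3 and 4 were above every vehicle mouse, while D + Q replicate 1, the highest mouse for Angptl4, was next to the lowest for Ucp3. The mean was 77.7 ± 30.8 TPM (SD, n = 4) for D + Q–treated mice and 54.7 ± 13.2 TPM (SD, n = 4) for vehicle-treated mice. In heart, Ucp3 was at 13.9, 16.9, 14.5 and 10.4 TPM with vehicle and at 13.6, 25.1 and 14.0 TPM with D + Q. The groups overlapped, and the means were 17.6 ± 6.49 TPM (SD, n = 3) and 13.9 ± 2.70 TPM (SD, n = 4). The profiles most like that of Ucp3 were Gm9487 (r = 0.95) and Myh4 (r = 0.94) in TA and Zdhhc6 and Rnpepl1 (both r = 0.96) in heart.

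Heart D + Q replicate 2 was the highest heart for Angptl4, Pdk4, Ucp3 and Plin5 and the highest of its group for Ucp2. It also held transcripts of skeletal muscle, with Tnnt3, fast skeletal troponin T, at 21.5 TPM against between 0.219 and 1.77 TPM in the other 6 hearts. Its Tnnt3 was 0.254% of the TA mean. The same share of the TA mean is 1.07 TPM for Pdk4, 0.168 TPM for Ucp3, 0.0863 TPM for Ucp2, 0.0351 TPM for Angptl4 and 0.0115 TPM for Plin5. The part of this difference in the values of the 5 genes was not tested further.

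Ucp2, the carrier found in many tissues and high in immune cells, was at 32.8, 28.5, 36.2 and 20.4 TPM in vehicle-treated TA and at 46.0, 48.4, 25.1 and 35.01 TPM in D + Q–treated TA. D + Q replicates 1 and 2 were above every vehicle mouse, and D + Q replicate 3 was below 3 of the 4 vehicle mice. The mean was 38.6 ± 10.7 TPM (SD, n = 4) for D + Q–treated mice and 29.5 ± 6.82 TPM (SD, n = 4) for vehicle-treated mice. The 8 macrophage markers added up to 464, 491, 534 and 289 TPM with vehicle and to 650, 706, 358 and 544 TPM with D + Q. The same 2 mice, D + Q replicates 2 and 1, were highest and the same 2, vehicle replicate 4 and D + Q replicate 3, were lowest for Ucp2 and for the macrophage sum. Dpep2 (r = 0.99) and Ctss (r = 0.98) had the profiles most like that of Ucp2 in TA.

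In heart, Ucp2 was at 44.6, 76.5, 47.3 and 40.9 TPM with vehicle and at 25.5, 34.5 and 23.5 TPM with D + Q. All 3 D + Q–treated hearts were below all 4 vehicle-treated hearts, with means of 27.8 ± 5.88 TPM (SD, n = 3) and 52.3 ± 16.3 TPM (SD, n = 4). All D + Q–treated hearts were below all vehicle-treated hearts for 5.57% of the 16132 genes tested, and above or below for 15.2%. In the same hearts the macrophage markers added up to 157, 260, 186 and 167 TPM with vehicle and to 155, 205 and 128 TPM with D + Q, so that these sums overlapped, and none of the 8 markers was called. The red cell markers added up to 571, 1231, 373 and 346 TPM with vehicle and to 26.8, 74.2 and 122 TPM with D + Q. The atrial markers, whose sums also separated the groups, added up to 862, 4260, 2204 and 1083 TPM with vehicle and to 382, 427 and 427 TPM with D + Q. Vehicle replicate 2 was the highest heart for Ucp2 and for the macrophage, red cell and atrial sums. In bulk tissue, fewer cells of a type and less RNA per cell cannot be told apart. The part of these cells in the level of Ucp2 was not tested. The profiles most like that of Ucp2 in heart were Mmp23 and Mnt (both r = 0.99).

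The first comparison asked whether D + Q changed the 5 genes in young TA. limma was fitted to log2(TPM + 0.5) over 16298 genes with 1 surrogate variable, and a gene was called if its Benjamini-Hochberg adjusted p was under 0.05 and its log2 fold change exceeded 0.5 in size. All 5 genes had positive log2 fold changes, as 33.6% of all genes did, and 0 of 5 were called, as were 0 of all genes tested (0%). The log2 fold change was 0.57 (SE 0.26) for Ucp3, 0.52 (SE 0.34) for Angptl4, 0.45 (SE 0.18) for Pdk4, 0.40 (SE 0.20) for Plin5 and 0.25 (SE 0.20) for Ucp2. The adjusted p from limma was 0.999 for each of the 5. The unadjusted p of Pdk4 was 0.0332 in limma (adjusted p = 0.999), and 1 of the 5 genes and 488 (2.99%) of all genes had an unadjusted p under 0.05. The median of the 5 genes was 0.45 and that of all genes -0.07. With median-of-ratios scaling these medians were 0.49 and 0.003, and 8241 of the 16298 genes were positive. None of the 5 genes separated the groups, as 1.52% of all genes did, and the smallest exact permutation p of the 5 was 0.0571 for Plin5, where 0.0286 is the smallest this design can give. The value of Angptl4 depended on the surrogate variable, being 1.04 (SE 0.68) without a covariate and 0.29 (SE 0.76) with labelled sex. All D + Q–treated TA mice were male, and vehicle replicates 2 and 4 were female. These females were the 2 lowest vehicle mice for Angptl4, Pdk4, Ucp2 and Ucp3, while for Plin5 replicate 2 was the highest vehicle mouse. Treatment and sex are therefore partly mixed in this comparison. Ucp3 was 0.16 without D + Q replicate 3, Ucp2 was 0.03 without D + Q replicate 2 and Plin5 was 0.23 without vehicle replicate 3.

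In older heart, with labelled sex in the model, 0 of the 5 genes were called, against 51 of 16132 genes (0.316%), of which 17 were higher (0.105%) and 34 lower (0.211%). By Xist and Y-linked genes, all D + Q–treated hearts read as female, against the label of D + Q replicate 3. Treatment and sex are therefore partly mixed here as well. The count of all genes ranged from 0 without vehicle replicate 2 to 136 without vehicle replicate 3. Angptl4 had a log2 fold change of 0.89 (SE 0.27, unadjusted p = 0.0135, adjusted p = 0.168 in limma), Pdk4 of 0.70 (SE 0.34, adjusted p = 0.335), Plin5 of 0.33 (SE 0.16, adjusted p = 0.343) and Ucp3 of 0.23 (SE 0.21, adjusted p = 0.615). Ucp2 moved the other way, with a log2 fold change of -0.95 (SE 0.18, unadjusted p = 0.000951, adjusted p = 0.0934 in limma), and a vehicle mean 1.88 times the D + Q mean. The exact permutation test of Ucp2 gave p = 0.0286, the smallest that 7 hearts allow, and the next smallest was 0.0857 for Angptl4. Without D + Q replicate 2 the log2 fold changes were 0.59 for Angptl4, 0.39 for Pdk4 and 0.01 for Ucp3. Plin5 was 0.17 without vehicle replicate 2 and 0.50 without vehicle replicate 3. Leaving out single hearts gave values of Ucp2 from -1.10 to -0.76, and of these 7 fits it was called only in the one without vehicle replicate 3 (adjusted p = 0.0476 in limma).

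Whether D + Q acted differently in the tissues was tested as an interaction over all 15 mice, without a sex term. By Xist and Y-linked genes, all D + Q–treated TA mice read as male and all D + Q–treated hearts as female. Both vehicle groups held males and females, so sex is partly mixed with this difference. None of the 5 genes was called, against 11 of 17868 genes (0.0616%). Ucp2 had the largest difference of the 5, with an effect in heart minus TA of -1.25 on the log2 scale (SE 0.35, unadjusted p = 0.00305, adjusted p = 0.479 in limma). It was higher with D + Q than the vehicle mean in 3 of 4 TA mice and lower in 3 of 3 hearts. For the other 4 genes the difference lay between -0.15 and 0.25, with standard errors between 0.24 and 0.88, and for each of them its sign turned when some single mouse was left out.

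**Figure D2:**
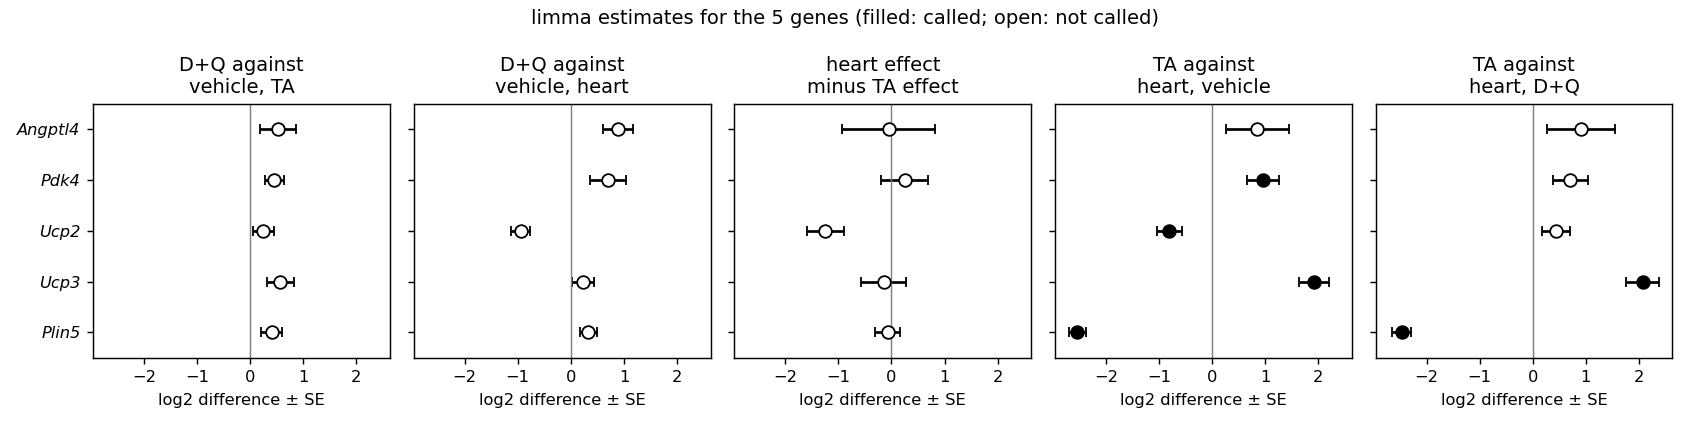
Estimates from limma (log2 difference ± SE) for the 5 genes in 5 comparisons, with filled points for called genes and open points for the others. The treatment panels hold no filled point, and the tissue panels hold Ucp3 on the right and Plin5 on the left in both treatments.

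The tissue comparisons used the same mice as the treatment comparisons and are not independent of them. In vehicle-treated mice, 4 of the 5 genes were called between TA and heart, where 36.7% of all genes were (22.6% higher and 14.1% lower in TA). Ucp3 was higher in TA by 1.92 on the log2 scale (SE 0.28, adjusted p = 5.13e-05 in limma), and Pdk4 by 0.95 (SE 0.30, adjusted p = 0.0178). Plin5 was lower in TA, at -2.54 (SE 0.16, adjusted p = 4.44e-09 in limma), and Ucp2 at -0.80 (SE 0.24, adjusted p = 0.0127). Angptl4 was not called, at 0.85 (SE 0.60, adjusted p = 0.271 in limma), and it was 0.39 without TA vehicle replicate 3. The mean of Plin5 was 6.44 times higher in heart and the mean of Ucp3 3.93 times higher in TA, and mice of the 2 tissues did not overlap for either. The call of Pdk4 was lost without TA vehicle replicate 1 (log2 difference 0.83) and without heart vehicle replicate 4 (0.73). Median-of-ratios scaling moved the median of all genes from 0.16 to 0.00 and the split of all calls from 4038 higher and 2518 lower to 2926 and 3288, while the same 4 genes stayed called in the same directions.

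In D + Q–treated mice, Ucp3 (2.07, SE 0.31, adjusted p = 5.84e-05 in limma) and Plin5 (-2.47, SE 0.17, adjusted p = 1.67e-08) were called in the same directions, where 37.3% of all genes were called (21.4% higher and 15.9% lower). By Xist and Y-linked genes, all D + Q–treated TA mice read as male and all D + Q–treated hearts as female. Sex therefore cannot be told apart from tissue in this comparison. Pdk4 (0.71, SE 0.33, adjusted p = 0.0937 in limma) and Ucp2 (0.44, SE 0.26, adjusted p = 0.188) were not called, nor was Angptl4 (0.91, SE 0.65, adjusted p = 0.281), which was 0.48 without TA D + Q replicate 1. Without heart D + Q replicate 2 the log2 difference of Pdk4 was 1.12 and it was called (adjusted p = 0.00985 in limma). The mean of Ucp2 was 1.78 times higher in heart than in TA with vehicle and 1.39 times higher in TA than in heart with D + Q.

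Whether the 5 genes varied together was tested for the 10 pairs in each tissue by Pearson's r of log2(TPM + 0.5) over mice, with exact permutation tests over pairings and Benjamini-Hochberg adjustment over the 20 relations. No pair passed, with a smallest adjusted p of 0.126. In TA, Angptl4 and Pdk4 had the highest r, 0.77 (rho 0.81, unadjusted exact p = 0.0235), and D + Q replicates 4 and 1 were the 2 highest mice for both genes. Without these 2 mice, the farthest from the median of Angptl4, r was 0.32. Ucp2 and Ucp3, the neighbours on chromosome 7, had an r of -0.13 (rho -0.07, exact p = 0.757). The median r of the 10 TA pairs was 0.39, with 9 above 0, beside a median of 0.23 and 68.4% above 0 over all pairs of the genes tested. Taken as deviations from the group means, the median was 0.12, beside 0.25 for all pairs.

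**Figure D3:**
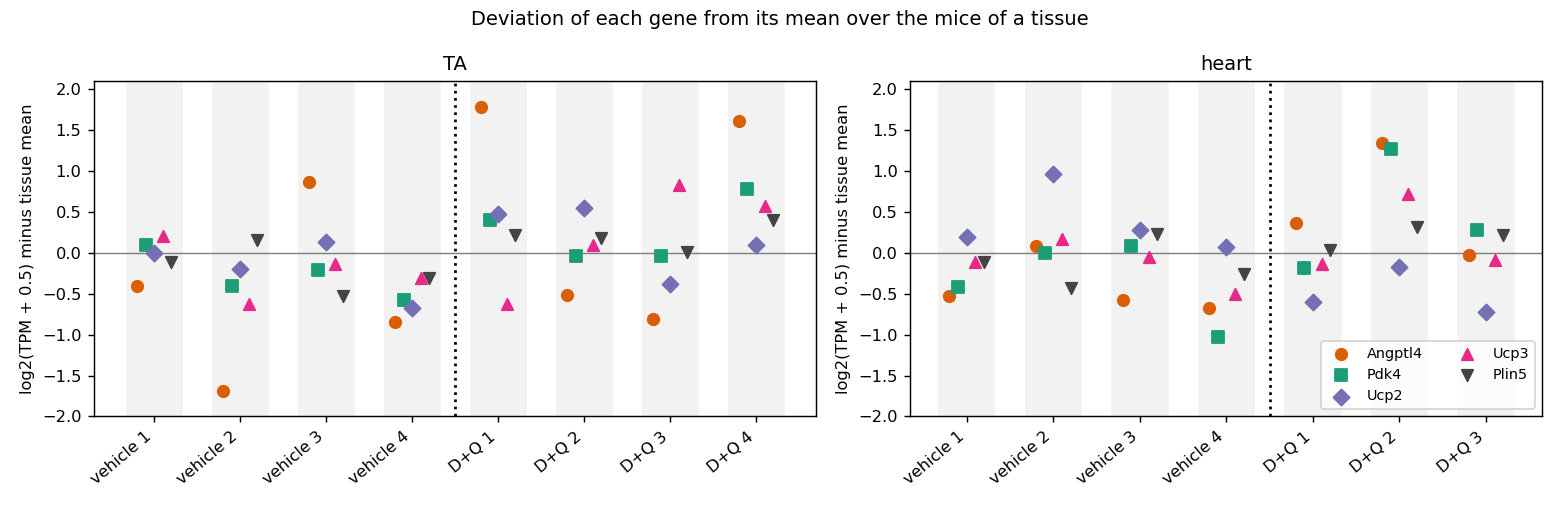
Deviation of each of the 5 genes from its mean over the mice of a tissue, in log2(TPM + 0.5), for 8 TA mice and 7 hearts, with a dotted line between vehicle and D + Q. Angptl4 spreads most in TA and no other gene has the same 3 highest mice, while in heart D + Q replicate 2 is high for Angptl4, Pdk4 and Ucp3 together.

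In heart, Pdk4 and Ucp3 had an r of 0.93 (rho 0.82, unadjusted exact p = 0.0109), Angptl4 and Ucp3 of 0.86 (rho 0.54, exact p = 0.0252) and Angptl4 and Pdk4 of 0.84 (rho 0.57, exact p = 0.0234). As deviations from the group means, r of these pairs was 0.94, 0.90 and 0.73. Without D + Q replicate 2 alone, r was 0.80 for Pdk4 and Ucp3, 0.50 for Angptl4 and Ucp3 and 0.51 for Angptl4 and Pdk4. Without D + Q replicate 2 and vehicle replicate 4, the hearts farthest from the median of Angptl4 and of Pdk4, the 5 remaining hearts spanned a narrower range and r was 0.22 for Pdk4 and Ucp3, 0.12 for Angptl4 and Ucp3 and 0.14 for Angptl4 and Pdk4. Ucp2 had negative r with Angptl4 (-0.27), Pdk4 (-0.18) and Plin5 (-0.65) over the 7 hearts, in which its groups did not overlap. As deviations from the group means, r of Ucp2 was 0.87 with Angptl4 (exact p = 0.0139, adjusted p = 0.139) and 0.81 with Ucp3 (exact p = 0.0139, adjusted p = 0.139). Vehicle replicate 2 and D + Q replicate 2 were each the highest heart of their group for Ucp2, Angptl4 and Ucp3. The r of deviations was not computed without these hearts. The median r of the 10 heart pairs was 0.42, with 7 above 0, beside 0.15 and 61.9% for all pairs, and for deviations it was 0.70, beside 0.20.

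**Figure D4:**
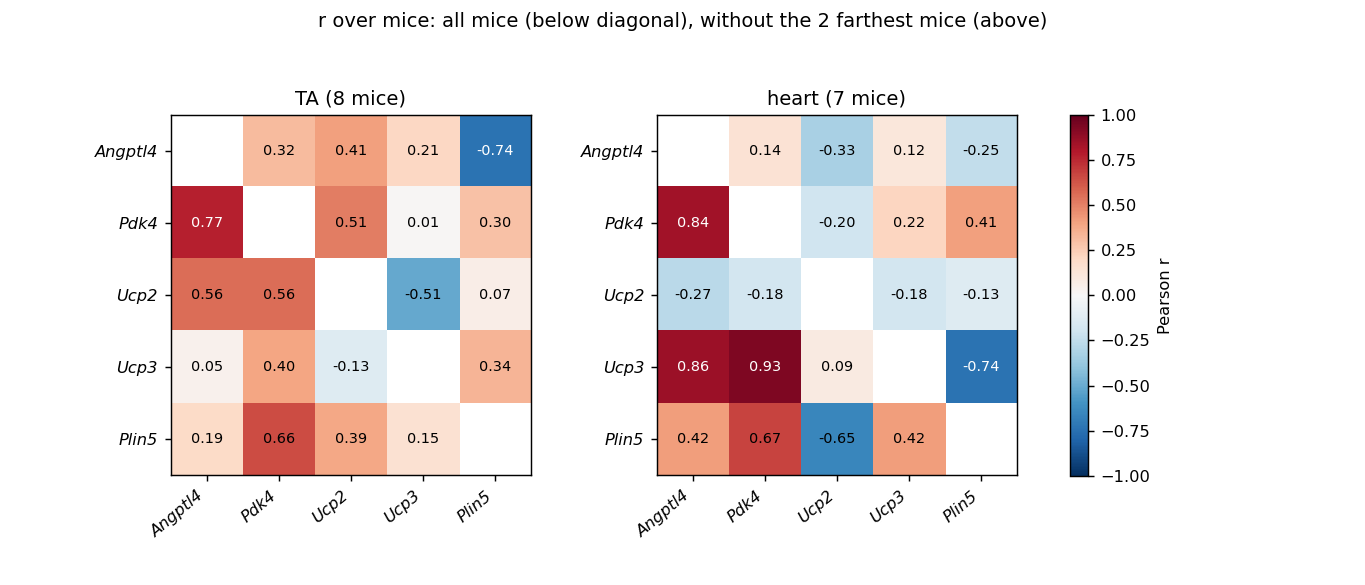
Pearson r between the 5 genes over 8 TA mice (left) and 7 hearts (right), for all mice below the diagonal and without the 2 mice farthest from the median of the pair's first gene above it. The dark red cells of heart, 0.84, 0.86 and 0.93, are 0.14, 0.12 and 0.22 above the diagonal.

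Genes that work with the 5 genes were described from lists. Of 20 tested partners (the lipase and receptor system of Angptl4, the kinases, phosphatases and subunits around Pdk4, the other perilipins and droplet lipases and the other uncoupling carriers), 0 were called with D + Q in TA, where Angptl2 (-0.35, SE 0.20) and Pnpla2 (0.22, SE 0.16) had the smallest p. In heart, 0 of 20 were called, 15 were positive and 8 had an unadjusted p under 0.05, beside 0.316%, 49.5% and 17.6% of all genes. Lpl, the lipase that Angptl4 inhibits, had the smallest p of these partners (log2 fold change 0.38, SE 0.07, adjusted p = 0.0891 in limma), with 789, 766, 900 and 780 TPM with vehicle and 1079, 1050 and 1049 TPM with D + Q. The 3 D + Q–treated hearts were all above the 4 vehicle-treated hearts for Lpl, as for 9.63% of all genes tested. Pdha1, the subunit that Pdk4 phosphorylates, followed (0.27, SE 0.05, adjusted p = 0.0922 in limma). The median of the partners was -0.05 in TA and 0.08 in heart, beside -0.07 and 0.00 for all genes.

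Among 13 receptors and coregulators, 0 were called in either tissue with D + Q. Ppargc1b (-0.50, SE 0.23) and Lpin1 (0.31, SE 0.15) had the smallest p in TA. Ppargc1a, the coactivator PGC-1α, had the smallest p of the list in heart (0.89, SE 0.16, adjusted p = 0.0908 in limma), at 35.6, 29.4, 44.3 and 29.7 TPM with vehicle and 59.4, 78.2 and 59.3 TPM with D + Q, followed by Lpin1 (0.40, SE 0.10, adjusted p = 0.131). The D + Q–treated hearts were all above the vehicle-treated hearts for Ppargc1a as well. With a count-based test that was not run here, the paper called Ppargc1b lower in TA and Ppargc1a higher in heart with D + Q. Of 25 other PPAR target genes, which serve fatty acid uptake and oxidation, 0 were called with D + Q in TA, with Fgf21 (0.89, SE 0.41) and Fabp3 (0.27, SE 0.15) at the smallest p. In heart, 0 of 24 tested were called, 21 were positive and 17 had an unadjusted p under 0.05, beside 49.5% and 17.6% of all genes. Acot2 (0.52, SE 0.12, adjusted p = 0.116 in limma) and Acadl (0.27, SE 0.07, adjusted p = 0.117), both enzymes of fatty acid metabolism in mitochondria, had the smallest p. The median of these targets in heart was 0.26, beside 0.00 for all genes and 0.26 for the 6 ventricular markers, of which 5 had an unadjusted p under 0.05. Of the targets, Cpt1a (-0.37, SE 0.10, adjusted p = 0.129 in limma), named after its value was seen, had the lowest log2 fold change.

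**Figure D5:**
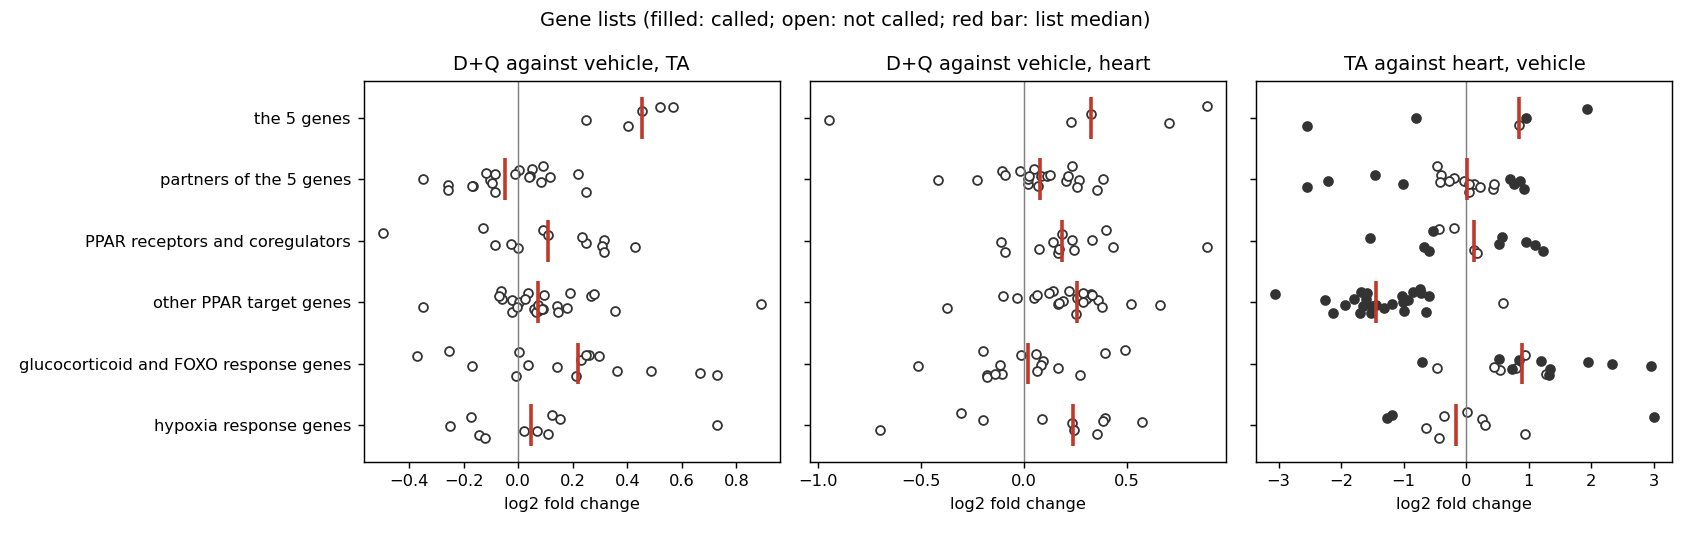
log2 fold changes from limma for the 5 genes and 5 gene lists, for D + Q against vehicle in TA and in heart and for vehicle-treated TA against vehicle-treated heart, with filled points for called genes and red bars for list medians. The axes differ in range, and 24 of 25 other PPAR target genes lie on the heart side while Pdk4 and Ucp3 lie on the TA side.

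Between the vehicle-treated tissues, 24 of the 25 other PPAR target genes were called lower in TA and 0 higher, beside 14.1% and 22.6% of all genes. Fgf21, a hormone induced by fasting, was not called (0.59, SE 0.35, adjusted p = 0.196 in limma). Fabp3, the fatty acid binding protein of heart (-3.05, SE 0.13, adjusted p = 2.64e-11 in limma), and the oxidation enzymes Acadm (-1.61, SE 0.08, adjusted p = 2.27e-10), Etfdh (-1.70, SE 0.09, adjusted p = 6.98e-10) and Acadl (-1.52, SE 0.10, adjusted p = 5.72e-09) had the smallest p. The median of these targets was -1.44, beside 0.16 for all genes. Plin5 was low in TA like these targets, while Pdk4 and Ucp3 were high there. In D + Q–treated mice 24 of 25 were called lower as well, beside 15.9% of all genes, with a median of -1.53. Of the receptors, Ppara was called lower in TA (-1.54, SE 0.19, adjusted p = 8.45e-06 in limma) and the partner Rxra (1.23, SE 0.13, adjusted p = 2.06e-06), Lpin1 (0.95) and Nrip1 (1.0998) higher. In all, 5 of the 13 receptors and coregulators were called higher and 4 lower, beside 22.6% and 14.1% of all genes. Of the partners, 4 of 20 were called higher and 4 lower, beside 22.6% and 14.1% of all genes, with Lpl (-2.55, SE 0.13, adjusted p = 4.12e-10 in limma), the pyruvate dehydrogenase phosphatase Pdp2 (-2.21), Plin3 (-1.46) and the kinase Pdk1 (-1.01), all lower in TA, at the smallest p. With median-of-ratios scaling, 4 partners were called higher and 7 lower, and 3 receptors and coregulators higher and 4 lower.

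Of 16 glucocorticoid and FOXO response genes, 0 were called with D + Q in TA or in heart. Fkbp5, a gene that glucocorticoids induce, had the smallest p in TA (0.67, SE 0.24, adjusted p = 0.999 in limma), followed by the ubiquitin ligase Fbxo32 (-0.37, SE 0.19). In heart, Trim63, another muscle ubiquitin ligase (0.27, SE 0.06, adjusted p = 0.111 in limma), and Mt2 (-0.51, SE 0.13, adjusted p = 0.118) had the smallest p. Their summed TPM was 7094, 1509, 1403 and 4729 in D + Q–treated TA and 1215, 1109, 4423 and 1318 in vehicle-treated TA, so that the 3 mice high in Angptl4 were the 3 highest. In these 3 mice most of the sum came from Mt1 and Mt2. Without this pair the other 14 genes added up to 815, 871, 893 and 794 TPM with D + Q and to 727, 807, 779 and 711 TPM with vehicle, and D + Q replicates 3 and 2 were highest. In heart, Angptl4 was higher in 2 of 3 D + Q–treated mice. There the sum of all 16 genes lay between 531 and 648 TPM with D + Q and between 547 and 682 TPM with vehicle. Without Mt1 and Mt2 it lay between 338 and 375 TPM with D + Q and between 312 and 372 TPM with vehicle. Between the vehicle-treated tissues, 9 of the 16 were called higher in TA and 1 lower, beside 22.6% and 14.1% of all genes. Sgk1 (2.34), Tsc22d3 (1.94), Klf9 (0.84) and Fbxo32 (1.20) had the smallest p of the list. Of 10 hypoxia response genes, a set to which Angptl4 also responds, 0 were called with D + Q in TA or in heart, with Ddit4 (0.73, SE 0.40) and Slc2a1 (-0.25, SE 0.19) at the smallest p in TA and Egln3 (0.57, SE 0.11) and Bnip3 (0.35, SE 0.08) in heart. In heart, 7 of the 10 were positive and 5 had an unadjusted p under 0.05, beside 49.5% and 17.6% of all genes, with sums between 402 and 418 TPM with D + Q and between 308 and 367 TPM with vehicle. Between the vehicle-treated tissues, 1 was called higher in TA (Pfkfb3, 3.00) and 2 lower (Egln3, -1.26, and Ankrd37, -1.18), beside 22.6% and 14.1% of all genes. Adipocytes also express Angptl4, and their 8 markers added up to between 136 and 196 TPM in TA and between 272 and 335 TPM in heart, of which Fabp4 alone was between 123 and 158 TPM in TA and between 240.1 and 304 TPM in heart. Lep was under 0.05 TPM in every D + Q–treated heart and Adipoq was between 0.264 and 3.29 TPM over the 15 mice, and 0 of the adipocyte markers were called with D + Q in either tissue. In TA, 5 of the 6 tested were negative with D + Q, where only 33.6% of all genes were positive. Their median was -0.35, beside -0.07 for all genes, and Plin1 (-0.81, SE 0.32) and Cfd (-1.22, SE 0.58) had the smallest p. With median-of-ratios scaling 2 of the 6 were positive and the median was -0.28. In heart 3 of the 7 tested were negative, where 49.5% of all genes were positive. The part of adipocytes in the level of Angptl4 was not tested.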

How the data were processed

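The 5 genes and all gene lists were chosen with earlier results of these data known, and a gene list is described by counts and medians only. The authors trimmed reads with Trim Galore 0.6.10, quantified them with Salmon 1.10.3 against GRCm39 and deposited TPM per gene, without replicate pooling. TPM sums to 1000000 in each library and keeps no depth, so no counting error can be given. The replicates are labelled as separate samples of 15 mice. Genes that reached 0.5 TPM in 3 or more of the mice in a fit were tested with limma 3.58.1 in R 4.3.3 (lmFit, eBayes with trend) on log2(TPM + 0.5), on which scale changes of low genes are understated. The TA model held 1 surrogate variable (5 rounds), the heart model labelled sex, and the tissue and interaction contrasts came from group means of all 15 mice. The code was tested on simulated data. Exact permutation tests were written out in Python 3.11.15 with NumPy 2.4.6, and SciPy 1.17.1 gave the ranks for rho. Positions come from GENCODE M39, in which 56236 identifiers were found. No count test was run, since TPM are not counts. Named genes are the 5 genes in each comparison, and of each list up to 4 called genes or, where none was called, the 2 with the smallest p, with the 2 most alike profiles per gene and tissue. Replicate numbers name different animals and were not used as pairs. The limma settings tried were other pseudocounts, filters, scalings, covariates, a replicate block and single mice left out.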

Additional observations from a re-analysis of the deposited data

Results flagged for a closer look

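Angptl4 in heart vehicle replicate 2, at 5.11 TPM, stood apart from the other 3 vehicle-treated hearts, with a gap to the nearest of them that was 0.84 of the group's range, above Dixon's critical value for 4 samples. It was the only such value among the 15 groups of at least 4 mice checked over the 5 genes. Chance alone gives about 1 such value for every 20 groups checked, so 1 among 15 is not unusual. The same heart was the highest for Ucp2, at 76.5 TPM, and for the red cell markers, with a sum of 1231 TPM.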

How the results depend on the processing

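Over settings other than leaving out 1 mouse, 213 of 215 values of the 5 genes kept their direction and their side of the threshold, the exceptions being Angptl4 in the interaction, at 0.0031 with the replicate block and 0.0839 with labelled sex as a covariate. The number of genes called in heart was 51, and was 0 with no filter on low values, 13 with no trend in the prior variance, 25 with sex read from expression and 4 with the replicate block. The number called in the interaction was 11, and was 7 with a pseudocount of 1, 5 with no filter and 5 with the replicate block. The replicate block changed no other call of the 5 genes, and same-numbered mice had mean correlations of deviations of -0.121 in TA and 0.004 in heart. With single mice left out, the number of genes called lay between 0 and 2 in TA, between 0 (without vehicle replicate 2) and 136 (without vehicle replicate 3) in heart and between 5 and 14 in the interaction. The interaction value then lay between -0.5145 and 0.3676 for Angptl4, between -0.1612 and 0.5648 for Pdk4, between -0.4264 and 0.0562 for Ucp3 and between -0.1891 and 0.0544 for Plin5. No pair of the 5 genes had an adjusted p under 0.05 in any setting run. The number of the 10 pairs with r above 0 was 9 in TA and 7 in heart, and as deviations 6 and 8. With single mice left out it lay between 6 and 10 in TA and between 6 and 7 in heart. The causes of these changes were not tested. With 3 or 4 mice per group, small changes of the 5 genes cannot be detected, and the interval of each follows from its standard error.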
